A study of Mus musculus with 14 samples.

Results

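The nuclear genes described here, 10 in number, are those whose proteins copy the mitochondrial DNA (mtDNA) or process and keep the RNA made from it, and they were followed through telomere-induced senescence in cultured fibroblasts and in liver. They are Polg, Twnk and Ssbp1 (replication), Mterf3 (transcription), Trmt10c and Elac2 (cleavage of precursor RNA), and Lrpprc, Fastkd1, Fastkd2 and Fastkd5 (handling of messenger RNA and ribosomal RNA). They were taken by gene symbol from the liver count table and joined by Ensembl gene ID to the fibroblast table, and all 10 were found among the 54532 genes of each table. The fibroblasts were iMEFs, mouse embryonic fibroblasts immortalized with the SV40 large T antigen, with the genotype Trf2F/F;Rosa-CreER in both groups. In that genotype both alleles of Trf2 (Terf2), which encodes a shelterin protein that protects chromosome ends, can be removed by a Cre recombinase that 4-hydroxytamoxifen (4HT) activates. Senescent iMEFs (3 libraries) were collected on day 7 after the start of 4HT, and control iMEFs (3 libraries) received vehicle. No library came from cells that received 4HT without loss of Trf2, so effects of the drug, of active Cre and of the loss cannot be told apart. Livers came from Trf2F/F;Rosa-mTmG mice (senescent, 4 libraries) and Rosa-mTmG mice (control, 4 libraries). Both groups of mice had received AAV8-Tbg-Cre, a virus that expresses Cre from a promoter active in hepatocytes, and livers were taken 6 to 7 weeks later. The mTmG allele is a Cre reporter, the other cells of these livers keep Trf2, and the age and sex of the mice are not stated in the sources used here.

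Mammalian mtDNA is a small circle that encodes subunits of the respiratory chain together with the ribosomal and transfer RNAs needed to translate them, and every protein that copies, transcribes or processes it is made in the cytosol from nuclear genes. DNA polymerase gamma (Polg) copies the circle behind the Twinkle helicase (Twnk), while Ssbp1 covers the exposed single strand. Transcription runs around almost the whole circle, and the long precursors are cut at the transfer RNAs that lie between the other genes. Trmt10c belongs to the mitochondrial ribonuclease P that cuts at the 5′ end of each transfer RNA, and Elac2 cuts at the 3′ end. Lrpprc keeps the freed messenger RNAs stable, and the FASTK family proteins act on particular messenger or ribosomal RNAs.

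Libraries held 15364450 to 20177401 reads in genes, which puts 319 to 9766 reads behind each group's value for a member. Terf2 was lower in the senescent group of both tissues, with a log2 fold change of -7.23 ± 0.177 (SE, adjusted p = 1.52e-10) in iMEFs and -1.72 ± 0.204 (adjusted p = 0.00216) in livers. Cdkn1a, a cell cycle inhibitor induced in senescence, was higher in both, by 2.15 ± 0.0921 (adjusted p = 8.88e-09) and 2.44 ± 0.419 (adjusted p = 0.0293). The summed level of 5 hepatocyte markers, in CPM (TMM-normalized counts scaled by library size), was 74429 to 84910 in control livers. In senescent livers it was 83219 to 102353 CPM. It was at most 0.0505 CPM in iMEFs, where Alb, Ttr, Cps1 and Serpina1a were at 0. Of 5 stellate cell and fibroblast markers the 4 tested in iMEFs were all lower in senescent cells, and their sum was 13205 to 14430 CPM in control and 2703 to 3936 CPM in senescent libraries, with Lrat at 0 in both. The macrophage and endothelial markers tested in iMEFs, 1 each, were higher in senescent cells, with summed levels of at most 8.20 and 16.5 CPM. Of 4 cholangiocyte markers 1 was higher and 2 were lower in senescent iMEFs, and their sum was 98.5 to 108 CPM in control and 80.5 to 82.7 CPM in senescent libraries. The part of these markers in the results below was not tested. None of the tested markers of hepatocytes, macrophages, leukocytes, stellate cells, endothelium, cholangiocytes or cycling cells passed the edgeR test in livers. Over all tested genes 39.8% were called in iMEFs and 0.343% in livers. The endothelial sum was 221 to 257 CPM in control and 257 to 307 CPM in senescent livers. The sums of the other types, hepatocytes apart, overlapped more widely between the liver groups. One library stood apart: senescent iMEF replicate 3 had 2.32% of its reads from the mitochondrial genome, where the other iMEF libraries had 0.599% to 0.853%. Values that move without it are given below.

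In iMEFs, 7 of the 10 genes rose with senescence and 0 fell (edgeR quasi-likelihood test, Benjamini-Hochberg adjusted p under 0.05 over 13561 genes). Fastkd2 and Trmt10c rose most, by 1.75-fold and 1.73-fold, followed by Fastkd1 (1.46-fold), Elac2 (1.37-fold), Lrpprc (1.34-fold), Mterf3 (1.28-fold) and Ssbp1 (1.21-fold), and Polg, Twnk and Fastkd5 did not pass. The iMEF comparison moved much of the transcriptome: 39.8% of all tested genes were called, 18.6% as higher and 21.2% as lower. The log2 fold change was above 0 for all 10 genes and for 50.3% of all tested genes, and its median was 0.39 over the 10 genes and 0.0028 over all tested genes. All 3 senescent libraries lay above all 3 control libraries for 8 of the 10 genes, the exceptions being Polg and Fastkd5. Over all tested genes the libraries of the groups did not overlap, in either direction, for 50.6%. The 7 calls were also 7 without senescent replicate 3, and leaving out any other library left 5 to 7. Of all tested genes 43.5% were called without senescent replicate 3, and 27.6% to 35.6% without any other library.

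Since 7 of the 10 genes rose in iMEFs, the upstream sequence of the genes was searched. RefSeq windows (assembly GRCm38.p6) of 250 bases before the start site were at hand for 9 of the 10 genes, all but Mterf3, with a pair of windows for Twnk. Both strands were searched for the cores of factors known for nuclear genes of mitochondria and for general elements: CCGGAAG (ETS family), GCATGCG (NRF1), AAGATGG (YY1), CACGTG (E-box) and CCAAT. The ETS core was in 5 of the 10 windows, which belong to 5 of the 9 genes, and in 6.91% of the 32851 windows of all genes. The windows of all genes had a median GC content of 52.4%, and those searched here had 38.0% to 64.8%. The motif shares were not adjusted for GC content. CCAAT was in 3 of the 10 windows, those of Elac2, Fastkd5 and Twnk, against 33.9% of all windows. The letters of the NRF1, YY1 and E-box cores were in 0 of the 10 windows, against 3.02%, 4.49% and 6.02% of all windows. The 6 matches to the ETS core are shown because they are the one element that most of the searched genes shared. Each is given 5′ to 3′ on the strand of its gene, with 30 bases around the core and the core, or its reverse complement CTTCCGG, in capitals.
Trmt10c, chr16:56037780-56037809, minus strand: gtggtgccggaCTTCCGGcggccgcggcgg
Ssbp1, chr6:40471410-40471439, plus strand: ggctccgtgcgCCGGAAGcgagccgctggc
Polg, chr7:79466293-79466322, minus strand: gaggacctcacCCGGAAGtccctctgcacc
Fastkd5, chr2:130629997-130630026, minus strand: agggccgctggCCGGAAGtgggttgtggag
Twnk, first match, chr19:45006437-45006466, plus strand: ctaaccggtgaCTTCCGGttccggggttgt
Twnk, second match, chr19:45006481-45006510, plus strand: ggagagttttgCTTCCGGagtcaccgcgag
Counted from the RefSeq start site, the first base of the match lay at -12 in Trmt10c, -47 in Ssbp1, -38 in Polg, -13 in Fastkd5, and -110 and -66 in Twnk. GENCODE M21 starts some of these genes farther upstream, and by its models the matches of Trmt10c, Ssbp1, Polg and Fastkd5 lie in an exon and both of Twnk in an intron. The whole Fastkd1 window, chr2:69712607-69712856 on the minus strand, lies inside its GENCODE gene, which starts at 69713516. Sequence upstream of that start was thus not searched for Fastkd1. The 5 genes with the core include Trmt10c and Ssbp1, which rose in iMEFs, and Polg, Twnk and Fastkd5, which did not pass the test. The other 4 searched genes, Fastkd1, Fastkd2, Lrpprc and Elac2, all rose. A match to these letters is a description of the sequence, and binding was not measured.

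Both genes for cleavage of the precursor RNA rose in iMEFs. Trmt10c (chr16:56032609-56037819, minus strand) encodes the methyltransferase subunit of ribonuclease P. Its level was 28.4, 31.6 and 30.4 CPM in control iMEFs and 51.5, 55.6 and 49.6 CPM in senescent iMEFs. Every senescent library lay far above every control library, and the log2 fold change was 0.79 ± 0.089 (SE, 95% confidence interval 0.60 to 0.99, adjusted p = 2.35e-05). Elac2 (chr11:64979038-65002069, plus strand), the endonuclease of the opposite end of the transfer RNA, had 39.8, 39.5 and 41.3 CPM in control and 54.8, 52.5 and 58.3 CPM in senescent libraries. The groups did not overlap and the log2 fold change was 0.46 ± 0.0838 (0.28 to 0.64, adjusted p = 0.000989).

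Ribonuclease P is a complex of Trmt10c with Hsd17b10, a dehydrogenase that also breaks down isoleucine, and the nuclease Prorp. The 3 subunits did not move the same way in iMEFs. Prorp was 9.33, 11.9 and 13.4 CPM in control and 15.7, 15.96 and 14.1 CPM in senescent libraries, a log2 fold change of 0.40 ± 0.142 (adjusted p = 0.04), but it passed with little margin and its adjusted p ran from 0.0147 to 0.173 over the alternatives. Hsd17b10 fell, from 71.3, 77.2 and 73.5 CPM to 54.1, 61.6 and 55.1 CPM, with a log2 fold change of -0.38 ± 0.0864 (adjusted p = 0.00421, and 0.000877 to 0.0289 over the alternatives). All 3 senescent libraries were below every control library for Hsd17b10 and above every control library for Trmt10c and Prorp.

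Among the genes that handle the finished RNA, Lrpprc had by far the highest level. Lrpprc (chr17:84705247-84790789, minus strand) encodes a pentatricopeptide repeat protein that binds mitochondrial messenger RNA, and its loss in people causes a form of Leigh syndrome. It was measured at 128, 140 and 151 CPM in control iMEFs and at 184, 202 and 174 CPM in senescent iMEFs. The groups did not overlap, and the log2 fold change was 0.42 ± 0.0869 (0.23 to 0.61, adjusted p = 0.00231). Its binding partner Slirp could not be followed: its reads summed to only 20 over the control and 15 over the senescent iMEF libraries, too few for the test, and 93.9% of its exon bases lie opposite exons of Snw1, so reads could be left uncounted.

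Of the 3 FASTK family members, Fastkd1 and Fastkd2 rose in iMEFs and Fastkd5 did not pass. Fastkd2 (chr1:63730614-63754655, plus strand), which acts in assembly of the mitochondrial ribosome, was at 22.0, 24.5 and 27.0 CPM in control and 37.9, 40.2 and 50.2 CPM in senescent libraries. Every senescent library exceeded the highest control, with senescent replicate 3 the highest of all, and the log2 fold change was 0.80 ± 0.121 (0.54 to 1.07, adjusted p = 0.000238). Without replicate 3 it was 0.68. Fastkd1 (chr2:69686815-69713516, minus strand), which affects the stability of particular mitochondrial messenger RNAs, had 12.8, 11.4 and 15.4 CPM in control and 18.6, 18.0 and 21.1 CPM in senescent libraries. Again the groups were apart, and the log2 fold change was 0.55 ± 0.131 (0.26 to 0.83, adjusted p = 0.00577). Fastkd5 (chr2:130613840-130630027, minus strand), which is needed for precursors whose ends carry no transfer RNA, stood at 8.28, 9.13 and 8.13 CPM in control and 8.70, 9.62 and 8.43 CPM in senescent libraries. These values overlapped, and the interval of the log2 fold change, -0.22 to 0.35 around 0.065 (adjusted p = 0.726), leaves room for a change of either sign. The Fastkd5 value is the least certain of the 10, because 65.2% of its exon bases are also exons of Ubox5 on the same strand and counting may leave shared reads out. Of the other family genes in iMEFs, Tbrg4 (Fastkd4) rose by 0.60 ± 0.0785 (adjusted p = 8.48e-05), while Fastk (-0.025 ± 0.107, adjusted p = 0.871) and Fastkd3 (0.035 ± 0.0968, adjusted p = 0.796) did not pass.

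Of the 3 replication genes, Ssbp1 rose and the polymerase and helicase genes did not pass. Ssbp1 (chr6:40471352-40484700, plus strand) had 35.8, 32.4 and 32.9 CPM in control and 38.0, 44.2 and 40.3 CPM in senescent libraries. The groups were apart by a small gap, and the log2 fold change was 0.27 ± 0.0928 (0.073 to 0.48, adjusted p = 0.0327). This call was lost without control replicate 2 (adjusted p = 0.128), control replicate 3 (0.0815) or senescent replicate 2 (0.13), and the adjusted p ran from 0.0183 to 0.13 over all alternatives. Twnk (chr19:45005663-45012762, plus strand) was at 39.1, 39.2 and 37.5 CPM in control and 45.8, 41.2 and 40.8 CPM in senescent libraries. Its groups were apart too, yet the log2 fold change of 0.14 ± 0.0866 (-0.045 to 0.33) did not pass (adjusted p = 0.21). Polg (chr7:79446231-79466362, minus strand) had 62.2, 64.7 and 59.8 CPM in control and 64.1, 62.9 and 84.7 CPM in senescent libraries. Senescent replicates 1 and 2 lay within the control range and replicate 3, the library with the high mitochondrial read share, lay above every other one. The log2 fold change of Polg was 0.18 ± 0.112 (-0.063 to 0.43, adjusted p = 0.222) with that library and 0.042 without it. Polg2, the accessory subunit of the polymerase, had 3.09, 4.29 and 3.04 CPM in control and 3.60, 3.59 and 4.82 CPM in senescent iMEFs, a log2 fold change of 0.20 ± 0.216 (adjusted p = 0.489).

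Mterf3 (chr13:66906968-66933088, minus strand) encodes a repressor of mitochondrial transcription initiation that also has a part in ribosome assembly. It was measured at 25.2, 28.9 and 30.6 CPM in control iMEFs and 33.0, 38.4 and 37.1 CPM in senescent iMEFs. All senescent values were above all control values, and the log2 fold change was 0.36 ± 0.103 (0.13 to 0.58, adjusted p = 0.0158). It was no longer called without control replicate 1 (adjusted p = 0.0814) or senescent replicate 2 (0.057), within a range of 0.00901 to 0.0814 over the alternatives. Polrmt, Tfam and Grsf1, which act in mitochondrial transcription or on its products, did not pass in iMEFs. Polrmt, the mitochondrial RNA polymerase, had a log2 fold change of 0.35 ± 0.134 (adjusted p = 0.0517), with 70.3 CPM in senescent replicate 3 and 48.9 to 49.9 CPM in the other senescent libraries, and its value was 0.18 without that replicate. It passed with DESeq2 (adjusted p = 0.0234), with RLE factors (0.0397), without a filter (0.00796) and without control replicate 1 or senescent replicate 1 or 2, in a range of 0.00796 to 0.163 over the alternatives. Tfam, which packages mtDNA and opens its promoters, had 0.15 ± 0.0862 (adjusted p = 0.186), and Grsf1, an RNA-binding protein of the mitochondrial RNA granules, had 0.18 ± 0.0894 (adjusted p = 0.136). Both passed without senescent replicate 3, Tfam with an adjusted p of 0.0479 and Grsf1 with 0.0111, in ranges of 0.0479 to 0.481 and 0.0111 to 0.387 over the alternatives.

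**Figure D1:**
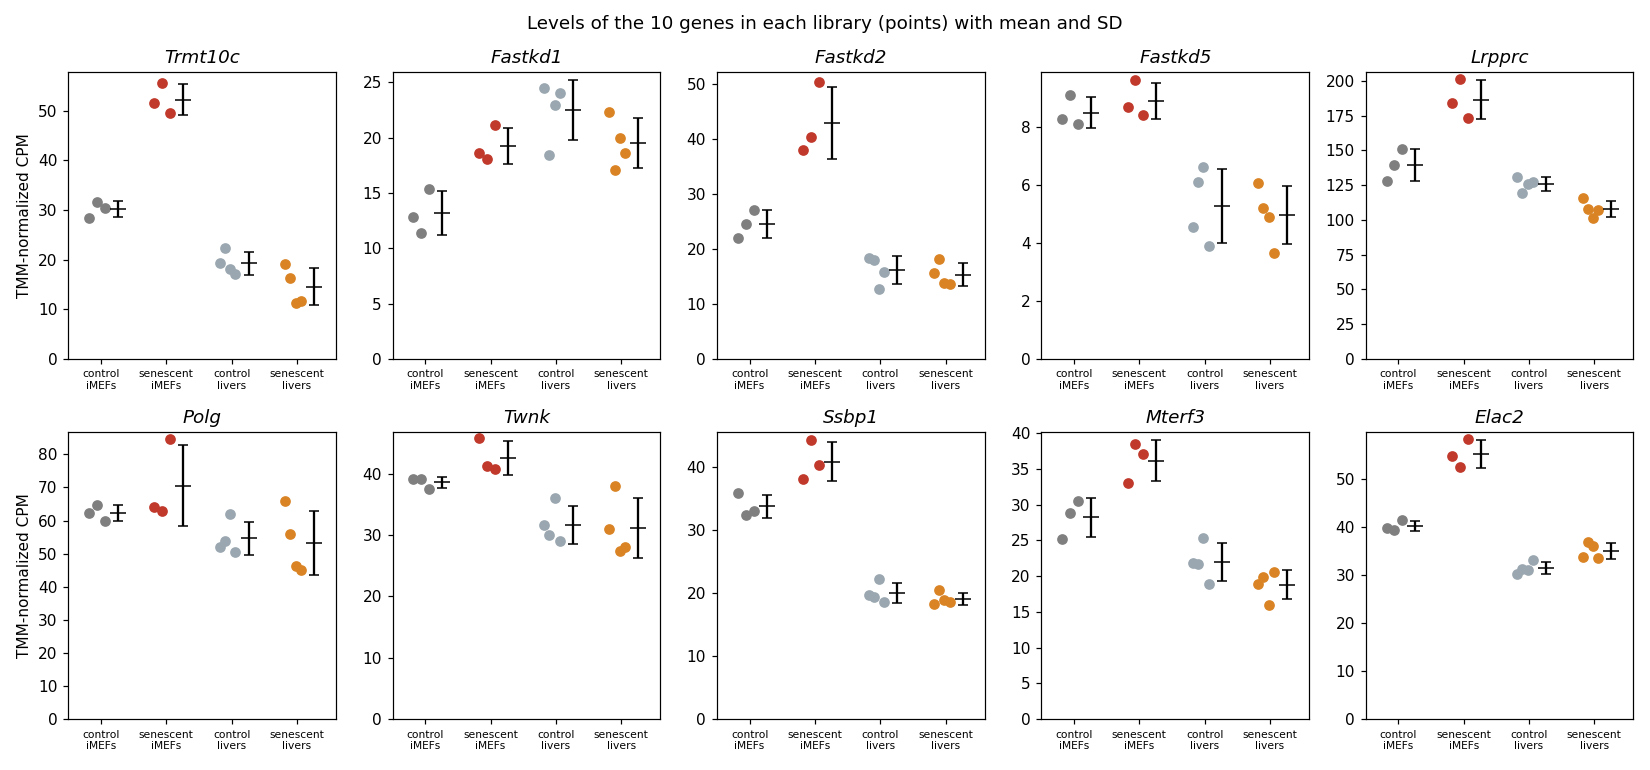
Levels of the 10 genes in TMM-normalized CPM (y axis, linear, from 0) for each library of the 4 groups (x axis), with the mean and SD beside the points (n = 3 per iMEF group, n = 4 per liver group). CPM was scaled within each tissue, so heights compare within a tissue; in iMEFs the senescent points lie above the control points in every panel but Polg and Fastkd5.

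In livers, 0 of the 10 genes passed the same test over 14270 genes, where 0.343% of all tested genes were called (49 genes). DESeq2 and limma-voom also called 0 of the 10, where they called 0.974% and 0.322% of all tested genes. The log2 fold change was below 0 for 9 genes and above 0 for Elac2, and its median was -0.087 over the 10 genes and -0.0040 over all tested genes. The count of 9 rested on single libraries, as it was 6 without control replicate 3 or senescent replicate 4 and 7 without senescent replicate 3. The libraries of the groups did not overlap for 2 of the 10 genes, against 4.51% of all tested genes. In a whole liver, fewer cells of a type and less RNA per cell cannot be told apart.

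Lrpprc was 131, 120, 126 and 127 CPM in control livers and 116, 108, 102 and 107 CPM in senescent livers. Every senescent liver lay below every control liver, and the log2 fold change was -0.22 ± 0.0774 (-0.39 to -0.053), with an unadjusted p of 0.0143 and an adjusted p of 0.517. Elac2 was the only other gene of the 10 whose liver groups did not overlap, and in the other direction. It had 30.2, 31.2, 31.1 and 33.1 CPM in control and 33.8, 36.9, 36.0 and 33.5 CPM in senescent livers, a log2 fold change of 0.16 ± 0.0836 (-0.024 to 0.34, adjusted p = 0.702). Trmt10c had the lowest log2 fold change of the 10, -0.40 ± 0.17 (-0.77 to -0.028, unadjusted p = 0.0373, adjusted p = 0.623). Its control livers were at 19.2, 22.3, 18.2 and 17.1 CPM and its senescent livers at 19.0, 16.3, 11.2 and 11.7 CPM, so that senescent replicates 3 and 4 were low and replicates 1 and 2 lay within or beside the control range.

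The other liver intervals all contained 0. Mterf3 had a log2 fold change of -0.22 (-0.48 to 0.039), with 18.9 to 25.4 CPM in control and 15.99 to 20.5 CPM in senescent livers. Fastkd1 had -0.21 (-0.47 to 0.061), with 18.5 to 24.5 CPM against 17.1 to 22.3 CPM. For Fastkd2 the value was -0.084 (-0.40 to 0.23), between 12.7 and 18.3 CPM in control and 13.6 and 18.2 CPM in senescent livers. These 3 genes, which rose in iMEFs, had overlapping liver groups. Ssbp1 stood at -0.070 (-0.29 to 0.15), with 18.5 to 22.3 CPM against 18.2 to 20.4 CPM. Polg was at -0.034 (-0.31 to 0.24) and Twnk at -0.026 (-0.29 to 0.24), and both of these intervals exclude a rise or fall beyond 0.31. The interval of Fastkd5, -0.59 to 0.41 around -0.090, was the widest of the 10 in livers, at 3.88 to 6.63 CPM in control and 3.66 to 6.07 CPM in senescent livers.

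The response of the 2 tissues was compared gene by gene in 1 fit over all 14 libraries, as the log2 fold change in iMEFs minus that in livers. It was above 0 for all 10 genes, and 5 passed, where 17.1% of the 11693 genes tested in both tissues were called in either direction. Trmt10c differed most, by 1.19 ± 0.216 (0.74 to 1.65, adjusted p = 0.00116), and Fastkd2 followed with 0.89 ± 0.205 (0.46 to 1.32, adjusted p = 0.0068). Fastkd1 differed by 0.75 ± 0.191 (adjusted p = 0.0121), Lrpprc by 0.64 ± 0.121 (adjusted p = 0.00159) and Mterf3 by 0.58 ± 0.172 (adjusted p = 0.0279). The Mterf3 difference was lost without control iMEF replicate 1 (adjusted p = 0.0892), control iMEF replicate 2 (0.0573), senescent iMEF replicate 2 (0.0694) or control liver replicate 3 (0.0557), in a range of 0.0145 to 0.0892 over the alternatives. For Ssbp1 and Elac2, which rose in iMEFs, a difference from livers was not shown: it was 0.35 (0.048 to 0.64, adjusted p = 0.103) and 0.30 (0.050 to 0.55, adjusted p = 0.0926). Polg (0.21, -0.17 to 0.60), Twnk (0.17, -0.17 to 0.52) and Fastkd5 (0.16, -0.44 to 0.75) did not pass either. The tissues also differ in how Trf2 was removed, in the time since removal and in their mix of cells. Control livers had received the Cre virus, whereas control iMEFs received vehicle, and the iMEFs are immortalized cells in culture. The effects of these differences cannot be told apart.

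**Figure D2:**
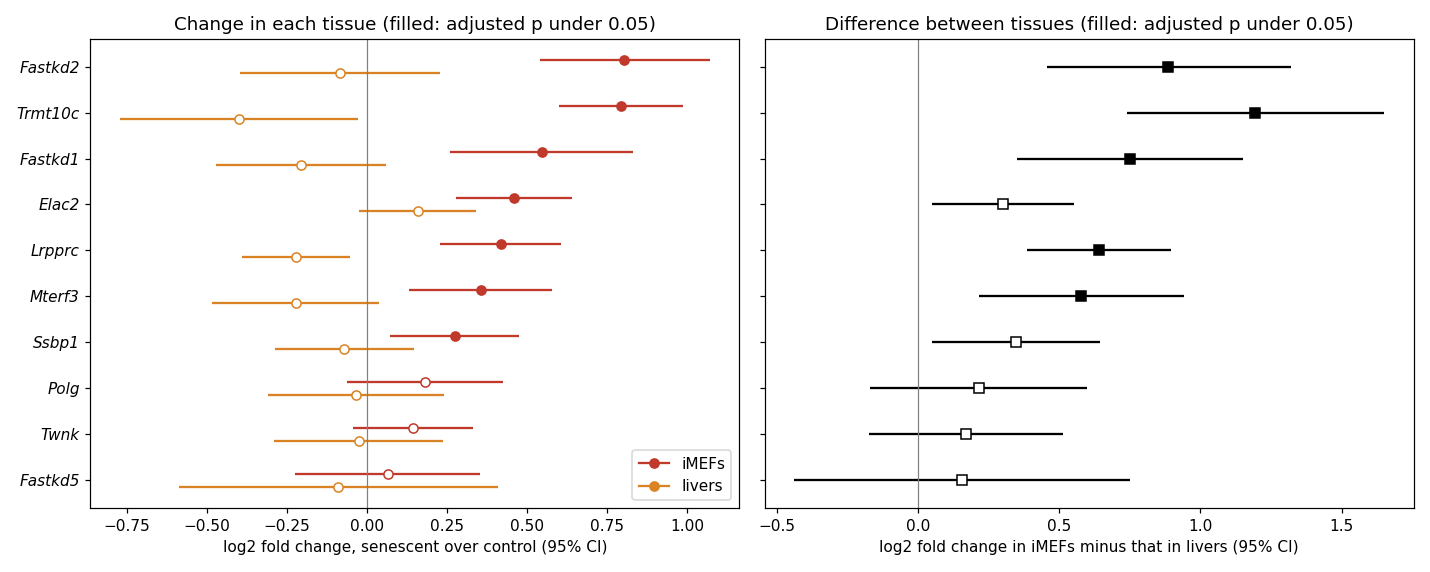
Left, log2 fold change of senescent over control (x axis) with 95% confidence intervals for each gene (y axis) in iMEFs (red, n = 3 against 3) and livers (orange, n = 4 against 4); right, the iMEF value minus the liver value from the joint fit (n = 14). Filled symbols have an adjusted p under 0.05: 7 in iMEFs, 0 in livers and 5 for the difference.

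Levels were compared between genes only per length, as mean CPM per kilobase of the principal coding transcript in GENCODE M21. Lrpprc was first in all 4 groups, with 31.8 ± 2.57 CPM per kilobase (SD, n = 3) in control iMEFs, 42.4 ± 3.21 in senescent iMEFs, 28.7 ± 1.10 (n = 4) in control livers and 24.6 ± 1.34 in senescent livers. Fastkd5 was last in all 4, at 2.82 ± 0.179, 2.96 ± 0.208, 1.76 ± 0.426 and 1.65 ± 0.331. That place is uncertain, because 65.2% of its exon bases are also exons of Ubox5 on the same strand. Counting may leave shared reads out while the full length is divided by, so its level may be too low. The order in control iMEFs was Lrpprc, Mterf3, Elac2, Twnk, Trmt10c, Polg, Ssbp1, Fastkd2, Fastkd1 and Fastkd5, with overlapping libraries between Polg and Ssbp1 and between Fastkd2 and Fastkd1. In senescent iMEFs Trmt10c stood above Twnk, and Fastkd2, Ssbp1 and Polg could not be separated by their libraries. In livers Fastkd1 stood above Polg and Trmt10c, though its libraries overlapped those of both genes in control and in senescent livers. Fastkd2 stood below Ssbp1, just above Fastkd5. The middle of the order depends on the length used. With all exons of a gene in place of the principal transcript, Mterf3 went from rank 2 to rank 5 in senescent iMEFs and to rank 6 in the other groups, and Fastkd1 was last in control iMEFs, while Lrpprc stayed first in all 4 groups.

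**Figure D3:**
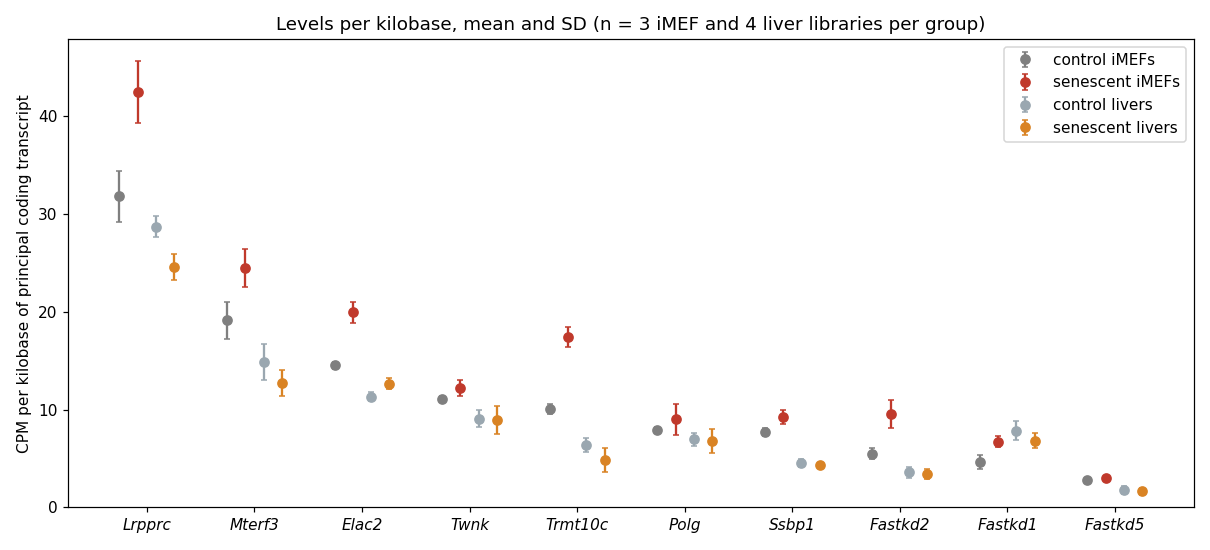
Mean level with SD (y axis, CPM per kilobase of principal coding transcript, linear) for each gene (x axis, ordered by control iMEFs) in control and senescent iMEFs (n = 3 each) and control and senescent livers (n = 4 each). Lrpprc is highest and Fastkd5 lowest in every group, and CPM was scaled within each tissue. The Fastkd5 level may be too low, because reads in exons shared with Ubox5 may be left out.

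The other genes of these pathways were taken from 6 lists, written with earlier results of these data known, that hold 89 genes besides the 10. In iMEFs 88 of them were tested, 25 rose, 3 fell and 60 did not pass, with a median log2 fold change of 0.15. In livers 88 were tested, 1 rose and 0 fell, with a median of -0.020, and of 87 tested for the difference 12 had a higher and 1 a lower log2 fold change in iMEFs than in livers. In the same comparisons 39.8% of all tested genes were called in iMEFs, 0.343% in livers and 17.1% for the difference. Without senescent iMEF replicate 3 the iMEF count was 28 higher and 4 lower, and 43.5% of all tested genes were called. Of 9 genes for transcription and termination 0 passed in iMEFs in either direction with edgeR, with Polrmt near the threshold (adjusted p = 0.0517). The count was 1 with DESeq2, 0 with limma-voom and 2 without senescent replicate 3.

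The list closest to Trmt10c and Elac2, for precursor cleavage and maturation of transfer RNA, had 8 of 17 genes higher and 1, Hsd17b10, lower in iMEFs, with a median of 0.33, against 18.6% of all tested genes higher and 21.2% lower. Most genes of this list are transfer RNA modifiers, and so were most of the called ones. Qtrt2, which takes part in queuosine formation, rose by 0.63 ± 0.0941 (adjusted p = 0.000226), Alkbh1, which oxidizes a modified base in the anticodon, by 0.55 ± 0.133 (adjusted p = 0.00585), and Yrdc, which acts in threonylcarbamoylation, by 0.50 ± 0.0909 (adjusted p = 0.000938). Prorp, with Trit1, Trmu, Pus1 and Trmt61b, made up the 8. Over the alternatives the adjusted p reached 0.0355 for Trit1, and of the other 3 it reached 0.0716 for Trmu, 0.12 for Pus1 and 0.124 for Trmt61b. Yrdc shares 24.6% of its exon bases with another gene. Whether the transfer RNAs that these proteins act on here are mitochondrial or cytosolic was not measured.

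For stability, polyadenylation and decay of messenger RNA, the list closest to Lrpprc, 5 of 14 genes rose and 0 fell in iMEFs, with a median of 0.11, where 18.6% of all tested genes rose. Without senescent replicate 3 it was 6. Beside Tbrg4 these were Ptcd3, a pentatricopeptide protein of the small ribosomal subunit (0.51 ± 0.0791, adjusted p = 0.000318), Supv3l1, the helicase of the degradosome (0.37 ± 0.0833, adjusted p = 0.00401), Pde12, which removes poly(A) tails (0.35 ± 0.0819, adjusted p = 0.00526), and Pnpt1, the degradosome's nuclease (0.39 ± 0.111, adjusted p = 0.0142, and up to 0.0745 over the alternatives). Genes on both sides of RNA turnover were among those that rose.

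For replication and maintenance of mtDNA, the list closest to Polg, Twnk and Ssbp1, 3 of 13 genes rose and 0 fell in iMEFs, with a median of -0.011, and 18.6% of all tested genes rose. Atad3a, a membrane ATPase bound to nucleoids, rose by 0.60 ± 0.0832 (adjusted p = 0.000135), the mitochondrial topoisomerase gene Top1mt by 0.52 ± 0.11 (adjusted p = 0.00274) and Mgme1, a nuclease that trims DNA ends during replication, by 0.50 ± 0.121 (adjusted p = 0.00569). Endog, a mitochondrial nuclease, was the 1 gene of all 6 lists called in livers. It was 28.7, 27.4, 28.3 and 28.9 CPM in control and 41.0, 42.0, 38.2 and 35.9 CPM in senescent livers, without overlap, with a log2 fold change of 0.47 ± 0.0864 (adjusted p = 0.0463). The call held without senescent liver replicate 4 and was lost without any one of the other 7 libraries, with adjusted p from 0.00107 to 0.195 over the alternatives. In iMEFs Endog had -0.55 ± 0.217 (adjusted p = 0.0598, and 0.0148 to 0.191 over the alternatives, passing as lower without a filter and without senescent replicate 3), with 2.38 to 3.61 CPM in senescent and 3.62 to 4.75 CPM in control libraries, and its difference between tissues was -1.02 ± 0.19 (adjusted p = 0.00141). Exons of Spout1 cover 35.7% of its exon bases.

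**Figure D4:**
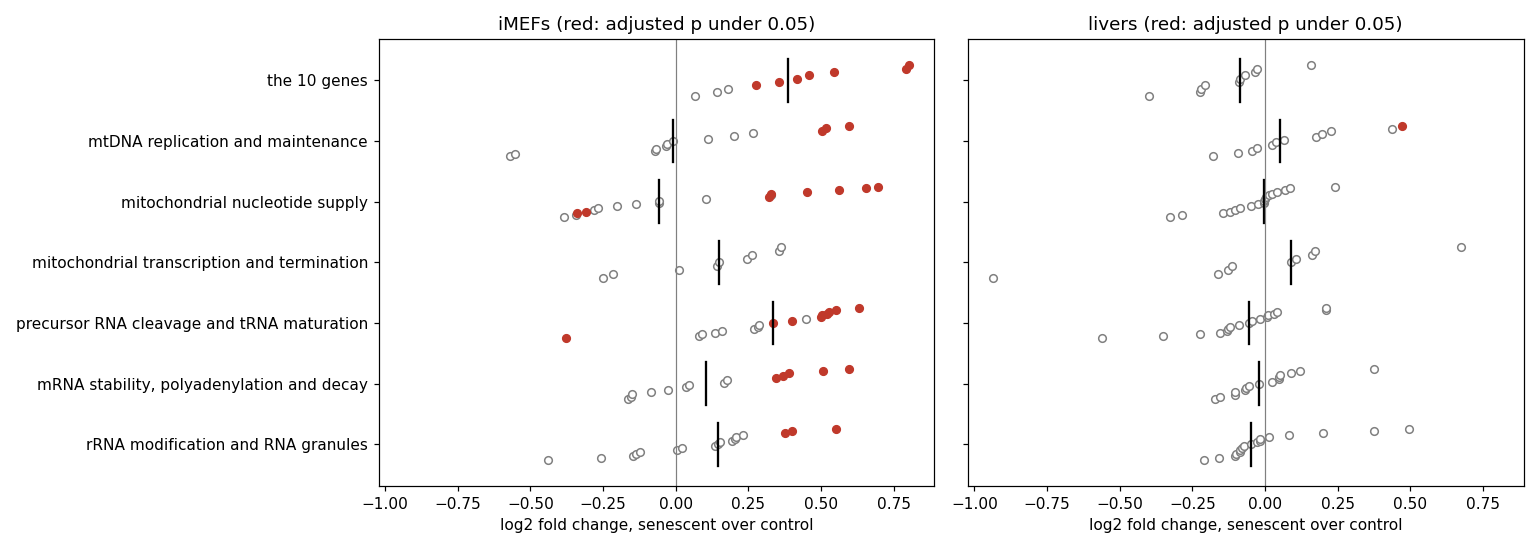
Log2 fold change of senescent over control (x axis) for each tested gene of the 10 and of 6 other lists (y axis) in iMEFs (left) and livers (right). Points past an adjusted p of 0.05 are red, black bars are medians; in iMEFs the median of the 10 genes is 0.39, and in livers the only red point is Endog.

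The RNA on which these proteins act is in the same libraries. The summed messenger RNAs of the 13 mitochondrial protein genes were at 5826, 7085 and 7201 CPM in control iMEFs and 7875, 5977 and 21902 CPM in senescent iMEFs. Senescent replicates 1 and 2 lay within or beside the control range and replicate 3 far above it. The summed level of the 10 genes was 402 to 434 CPM in control and 537, 564 and 564 CPM in senescent iMEFs, so senescent replicates 2 and 3, with mitochondrial messenger sums of 5977 and 21902 CPM, had the same sum for the 10 genes. Single genes differed between these libraries in both directions. Lrpprc was at 202 CPM in replicate 2 and 174 CPM in replicate 3, Polg at 62.9 and 84.7 CPM, and Fastkd2 at 40.2 and 50.2 CPM. In livers the mitochondrial messenger sum was 42368 to 49822 CPM in control and 37655 to 50847 CPM in senescent livers, and the sum of the 10 genes was 338 to 363 CPM in control and 296 to 347 CPM in senescent livers. Both pairs of liver ranges overlapped.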

How the data were processed

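RNA was sequenced from iMEFs and whole livers, with replicates that the methods call biological. The authors deposited raw counts of reads per gene, 1 table per tissue. The submitters' processing notes name STAR, featureCounts and mm10 without versions, and which strand setting and annotation release were used is not given in the sources used here. Normalized tables beside them were not used. Of the gene IDs, 54495 were found in GENCODE M21 (GRCm38), 53894 with the same symbol, and Prorp was matched by its older symbol.

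Each tissue was fitted apart in edgeR 4.0.16 (R 4.3.3) using the quasi-likelihood test after filterByExpr and TMM scaling, with Benjamini-Hochberg adjustment over all genes tested. The SE is the log2 fold change over the root of F, and intervals are 95%. The difference between tissues was a contrast in 1 fit. Precision is limited by depth, at 15364450 to 20177401 reads in genes, and by 3 or 4 libraries per group. As alternatives, DESeq2 1.42.0, RLE scaling, no filter, limma-voom (limma 3.58.1), a replicate block, a threshold of 0.01 and leaving out each library were tried. The fits were tested on simulated data. Replicates of a group differed by more than sampling noise (chi-square per degree of freedom 4.25 to 39.8).

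The members and lists were chosen with earlier results of these data known. Named genes are the 10, fixed partners, up to 4 called genes per list and tissue with the smallest p, and calls against the list's majority. Trit1, Trmu, Pus1, Trmt61b, Osgepl1, Pnpt1, Slc25a36 and Mpv17 were named after their values were seen. Figures were drawn with matplotlib 3.10.9 in Python 3.11.15.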

Additional observations from a re-analysis of the deposited data

Results flagged for a closer look

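The response to senescence differed between iMEFs and livers, by the test of the difference itself, for 5 of the 10 genes: the iMEF log2 fold change exceeded that of livers by 1.19 for Trmt10c, 0.89 for Fastkd2, 0.75 for Fastkd1, 0.64 for Lrpprc and 0.58 for Mterf3. Over the 11693 genes tested in both tissues 17.1% were called, in either direction. Of the 87 genes of the other lists tested for the difference, 12 had a higher log2 fold change in iMEFs and 1 a lower one. The excess of the 12 was 1.09 for Trmt61b, 0.99 for Rrm2, 0.98 for Slc25a33, 0.85 for Yrdc, 0.76 for Qtrt2, 0.67 for Osgepl1, 0.65 for Tbrg4, 0.64 for Atad3a, 0.54 for Suclg2, 0.48 for Ptcd3, 0.47 for Supv3l1 and 0.46 for Dhx30. Endog differed in the other direction, by -1.02. Over the alternatives the adjusted p of the difference reached 0.132 for Trmt61b, 0.154 for Osgepl1, 0.204 for Supv3l1, 0.0989 for Dhx30, 0.0823 for Ptcd3, 0.063 for Qtrt2 and 0.0616 for Slc25a33, so these calls, like that of Mterf3 (0.0892), were lost under some settings.

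Tfam was at 61.1 CPM in control liver replicate 3 and at 53.0 to 54.3 CPM in the other 3 control livers. That library lay farther from the rest than the 95% limit for 4 values allows, and it was the only one of 94 liver groups looked at for the named genes, where chance alone gives about 1 in 20.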

How the results depend on the processing

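In iMEFs the 10 genes were above 0 under every alternative, and the count called was 7 with DESeq2, RLE factors and limma-voom, 6 without a filter and 5 at a threshold of 0.01, and leaving out one library gave 5 to 7. Counts at 0.01, here and below, have no share of all tested genes beside them and cannot be set against a background. Of all tested iMEF genes 38% were called with DESeq2, 39.8% with RLE factors, 39.5% with limma-voom and 22.8% without a filter. Leaving out one library called 27.6% to 43.5% of them. In livers the count of the 10 was 0 throughout, where 0.238% to 0.974% of all tested genes were called at 0.05. The count that differed between tissues was 3 at 0.01 and 4 to 5 on leaving out one library. Leaving out one library called 10.8% to 18.4% of all genes tested in both tissues. In the wider lists the iMEF count was 28, and 21 to 32 on leaving out one library. The liver count of 1 was 0 with limma-voom, with the replicate block and at 0.01, and 0 to 1 on leaving out one library. Replicate numbers did not pair the samples: deviations of same-numbered libraries correlated at -0.189 to 0.0114 in iMEFs and -0.0999 to 0.276 in livers, and 0 of 6 and 2 of 8 libraries correlated best with their own number. With the replicate block 6 of the 10 genes were called in iMEFs (Ssbp1 lost, adjusted p = 0.0639), 0 in livers and 4 for the difference (Mterf3 lost, adjusted p = 0.0542), and 25 genes of the wider lists in iMEFs. The block called 34.6% of all tested genes in iMEFs, 0.294% in livers and 15.8% for the difference. Without a filter these calls of Ssbp1 and Mterf3 were lost too, at 0.0721 and 0.0785, and 6.58% of all genes were called for the difference. On leaving out one library some values near 0 changed sign, with log2 fold changes in livers of -0.21 to 0.035 for Fastkd5, -0.15 to 0.037 for Polg and -0.14 to 0.041 for Twnk, and in iMEFs of -0.13 to 0.037 for Fastk and -0.0025 to 0.1 for Fastkd3. Leaving out a library also ended iMEF calls of Prorp, Mrm3, Suclg1, Mpv17, Slc25a36, Pnpt1, Pus1, Trmu and Trmt61b. Causes were not tested. Among the 10 genes depth limits the livers most for Fastkd5, with 319 to 365 reads per group.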

Other observations

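The list for supply of nucleotides to mtDNA had calls in both directions in iMEFs: 6 of 18 genes rose and 2 fell, where 18.6% of all tested genes rose and 21.2% fell, and the median log2 fold change was -0.057. Whether the nucleotides made or broken down by these proteins serve mtDNA or nuclear DNA was not measured. Rrm2 and Rrm2b, the small subunits of ribonucleotide reductase that serve dividing and resting cells, rose by 0.66 ± 0.0757 (adjusted p = 2.97e-05) and 0.56 ± 0.104 (adjusted p = 0.00112). Slc25a33, a pyrimidine nucleotide carrier of the inner membrane, rose by 0.69 ± 0.141 (adjusted p = 0.00201), and Slc25a36 and Mpv17 rose as well. Samhd1, which breaks down deoxynucleotides, fell by 0.34 (adjusted p = 0.00245). The subunits of succinyl-CoA ligase parted, with Suclg2 higher by 0.45 ± 0.0873 (adjusted p = 0.00145) and Suclg1 lower, at -0.31 ± 0.0915 (adjusted p = 0.0173). In livers 0 of the 18 passed with edgeR, where 0.343% of all tested genes were called.

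For modification of ribosomal RNA and the RNA granules, 3 of 17 genes rose and 0 fell in iMEFs, with a median of 0.15, and 18.6% of all tested genes rose. These were Dhx30, a helicase of the granules (0.38 ± 0.0773, adjusted p = 0.00216), Noa1, a GTPase of ribosome assembly (0.40 ± 0.0925, adjusted p = 0.0046), and Mrm3, a ribosomal RNA methyltransferase (0.55 ± 0.166, adjusted p = 0.0192). In livers 0 of the 17 passed, where 0.343% of all tested genes were called. Beside the rise of Rrm2, the 5 cycling cell markers summed to 1698 to 1863 CPM in control and 1657 to 1847 CPM in senescent iMEFs, and 0 passed the test. In that comparison 39.8% of all tested genes were called.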
